A study of Mus musculus with 12 samples.

Results

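Transcripts of 8 genes best known for their expression in liver were followed in mouse skin: Alb, Serpina1a, Serpina1b, Serpina1c, Serpina1d, Apoa1, Apoa2 and Ttr. The group was selected on the measured fall of Alb between day 0 and day 7, and asks whether Alb fell alone or together with other genes of its kind. The 8 genes were found by mouse symbol, each matched 1 gene ID, and they stand among 55401 genes in the table. RNA sequencing was done on dermis of C57BL/6 mice aged 6 weeks in a study of wounds, and each of 4 groups held 3 biological replicates. The groups were wild type (WT) on day 0, Cthrc1-/- on day 0, WT on day 7 and Cthrc1-/- on day 7. Cthrc1 encodes a secreted protein with a collagen triple helix repeat. The labels say no more of the allele, and do not say whether day 0 skin was wounded.

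Hepatocytes make most of the soluble protein of blood plasma and secrete it into the circulation. Albumin (Alb) is the main carrier and osmotic protein of plasma, the Serpina1 genes encode alpha-1-antitrypsins, which inhibit serine proteases such as neutrophil elastase, Apoa1 and Apoa2 encode the main apolipoproteins of high-density lipoprotein, and Ttr encodes transthyretin, a carrier of thyroid hormone and retinol-binding protein. Skin holds much plasma albumin as protein, while its own cells are not known as a main source of these transcripts.

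Mice carry several near-identical Serpina1 genes where humans have 1, so the letters in which they differ decide which gene a read is counted for. Over 1242 aligned bases of their longest open reading frames (GENCODE M21 transcripts, GRCm38), any pair of Serpina1a to Serpina1e was between 96.3% and 98.5% identical. The 60-base stretch with the most differences is shown here, 5′ to 3′, with the 18 positions that vary among the 5 genes in capitals. It lies in the part that encodes the reactive centre loop, the bait that a target protease attacks.
Serpina1a: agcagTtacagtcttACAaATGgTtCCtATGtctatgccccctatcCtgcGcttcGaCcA
Serpina1b: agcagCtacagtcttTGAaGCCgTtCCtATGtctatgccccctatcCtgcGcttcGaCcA
Serpina1c: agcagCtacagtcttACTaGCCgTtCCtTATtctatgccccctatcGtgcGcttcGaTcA
Serpina1d: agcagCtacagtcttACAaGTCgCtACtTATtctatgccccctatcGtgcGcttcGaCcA
Serpina1e: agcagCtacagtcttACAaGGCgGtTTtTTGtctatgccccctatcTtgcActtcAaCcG
The copies of Serpina1a and Serpina1b differ there in several capitals, while long runs of lower case are shared by all 5 genes. Of all 150-base windows in each transcript, 40.7% in Serpina1a, 21.2% in Serpina1b, 50.5% in Serpina1c, 20.2% in Serpina1d and 9.42% in Serpina1e occurred without a mismatch in another of the 5. How the authors' counting divided such reads is not given in the sources used here, and values of single Serpina1 genes are uncertain for that reason.

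The sequences just before the start sites of some of these genes are shown as a description of their letters. The tables of RefSeq (GRCm38.p6) held 7 of the 8 promoters. In the 250 bases before the start, 1 short motif was searched on both strands: TGTTTGC, a core of the site of the FOXA factors. Capitals mark matches, on either strand, in the strand of the gene, 5′ to 3′. The windows are chr5:90460620-90460869 (plus strand) for Alb, chr12:103863620-103863869 (minus strand) for Serpina1a, chr9:46228380-46228629 (plus strand) for Apoa1 and chr1:171224804-171225053 (plus strand) for Apoa2.
Alb: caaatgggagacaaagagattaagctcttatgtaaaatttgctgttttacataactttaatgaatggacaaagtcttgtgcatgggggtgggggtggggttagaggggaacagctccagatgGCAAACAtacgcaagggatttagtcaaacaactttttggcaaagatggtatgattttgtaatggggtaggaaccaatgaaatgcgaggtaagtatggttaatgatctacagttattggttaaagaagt
Serpina1a: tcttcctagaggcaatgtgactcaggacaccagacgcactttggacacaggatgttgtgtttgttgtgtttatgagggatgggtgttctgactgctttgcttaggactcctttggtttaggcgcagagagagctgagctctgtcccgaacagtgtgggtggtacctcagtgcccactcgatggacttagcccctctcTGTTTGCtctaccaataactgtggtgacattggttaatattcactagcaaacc
Apoa1: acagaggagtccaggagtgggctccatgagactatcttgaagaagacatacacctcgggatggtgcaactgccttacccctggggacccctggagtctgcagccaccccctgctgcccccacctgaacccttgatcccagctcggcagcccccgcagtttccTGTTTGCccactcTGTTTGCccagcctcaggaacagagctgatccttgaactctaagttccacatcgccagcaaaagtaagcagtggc
Apoa2: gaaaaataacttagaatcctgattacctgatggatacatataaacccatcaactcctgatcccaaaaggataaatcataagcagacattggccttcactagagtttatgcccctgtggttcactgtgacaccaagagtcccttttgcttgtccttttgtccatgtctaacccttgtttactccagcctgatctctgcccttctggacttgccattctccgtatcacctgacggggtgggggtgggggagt
TGTTTGC or its reverse complement was present in Alb, in Serpina1a, Serpina1b, Serpina1c and Serpina1d, and in Apoa1, and no match to these exact letters was found in Apoa2. Other spellings of the FOXA site were not searched, so a window without a match may still hold such a site. Of 32851 promoters of that length, 4.30% held TGTTTGC or its reverse complement. The windows of the Serpina1 genes are near copies of one another, so their matches are not separate cases. The window of Serpina1b lay 92184 bases from the start of that gene in GENCODE M21. A match describes letters in this window, and a part of FOXA factors in the change between days was not tested.

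Total counts per sample ranged from 48329668 to 76938132, so that 3 counts, the upper limit that a count of 0 allows, equalled 0.0390 to 0.0621 CPM (counts scaled to library size), for counting error only. That limit takes 1 count as 1 fragment, which low counts of these data need not be, so bounds drawn from it are nominal. Cthrc1 was at 23.3 ± 3.21 FPKM (fragments per kilobase, scaled to library size; SD, n = 3) in WT on day 0 and at 0.0502 ± 0.0870 (SD, n = 3) in Cthrc1-/- on day 0. On day 7 it was at 91.9 ± 16.4 and 0.0408 ± 0.0445 FPKM (SD, n = 3 each), so both genotype labels held. The fibroblast collagens Col1a1 and Col3a1 averaged 1532 and 906 FPKM over the 12 samples, which fits the label dermis, but the keratinocyte genes Krt14 and Krt5 averaged 2629 and 2600 FPKM. Some libraries stood apart. The summed FPKM of 9 hair follicle genes was 3.68 to 6.61 in WT on day 0 but 246, 5250 and 12959 in the Cthrc1-/- replicates of day 0, and 524 to 5614 on day 7. The summed FPKM of 10 fibroblast genes was 402 in Cthrc1-/- day 0 replicate 3 against 5138 to 6736 in WT on day 0. The sum of 10 macrophage and neutrophil genes was 5764 in WT day 7 replicate 1, against at most 1528 in any other library. In bulk tissue, fewer cells of a type and less RNA per cell cannot be told apart.

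Alb (ENSMUSG00000029368, chromosome 5, 90460897 to 90476602, plus strand of GRCm38, a protein-coding gene) was the most abundant of the 8 in every sample of day 0. Its FPKM was 33.9, 11.5 and 22.7 in the WT replicates 1 to 3 of day 0, and 15.6, 18.4 and 33.5 in the Cthrc1-/- replicates of day 0. The day 7 values were 0.183, 0.119 and 0.361 in WT and 0.101, 0.0353 and 0.0929 in Cthrc1-/-. Every day 7 value therefore lay far below every day 0 value, in both genotypes. The mean was 22.7 ± 11.2 FPKM (SD, n = 3) in WT on day 0 and 0.221 ± 0.125 (SD, n = 3) on day 7, and mean CPM was 100-fold higher on day 0. In Cthrc1-/- the means were 22.5 ± 9.59 and 0.0764 ± 0.0358 FPKM (SD, n = 3 each), a ratio of 278 in mean CPM. The log2 changes of Alb were -6.86 in WT and -8.26 in Cthrc1-/-. These values chose the group, so they stand as a description with no test. By mean FPKM in WT on day 0 the order was Alb, Apoa1 (8.30 ± 3.94), Apoa2 (7.61 ± 3.14), Ttr (5.33 ± 2.26), Serpina1c (3.78 ± 1.27), Serpina1b (2.62 ± 1.52), Serpina1a (2.62 ± 1.32) and Serpina1d (1.68 ± 0.756; SD, n = 3 each). Each neighbouring pair in that order overlapped between libraries.

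Alb did not fall alone in WT. Each of the other 7 genes had every WT value of day 7 below every WT value of day 0, as had 14.1% of the 14313 genes with a mean of at least 1 FPKM and 9.98% of the 34303 genes with any count. In Cthrc1-/- this held for 6 of the 7, against 4.99% and 3.61% of genes, and the exception was Serpina1b. All 48 values of the 8 genes in the 6 day 0 libraries were above 0, while 12 of the 48 values on day 7 were at a count of 0. All genes were tested between days by the quasi-likelihood test of edgeR, with p-values adjusted over all genes tested and a call at an adjusted p under 0.05. Serpina1d had a mean of 0.826 FPKM, under the limit of 1, and was tested only in the fit without that filter. In WT, 6 of the 6 other genes in the filtered fit were called lower, where 7.10% of all genes were, and 7 of 7 in the fit without the filter, where 1.88% were. In Cthrc1-/-, 2 of 6 (Apoa1 and Ttr) and 3 of 7 (with Serpina1d) were called lower, where 0.601% and 0.175% of all genes were. The 7 genes were named beside Alb with results of these data known, and genes that pass a filter through day 0 alone had to be high there.

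**Figure D1:**
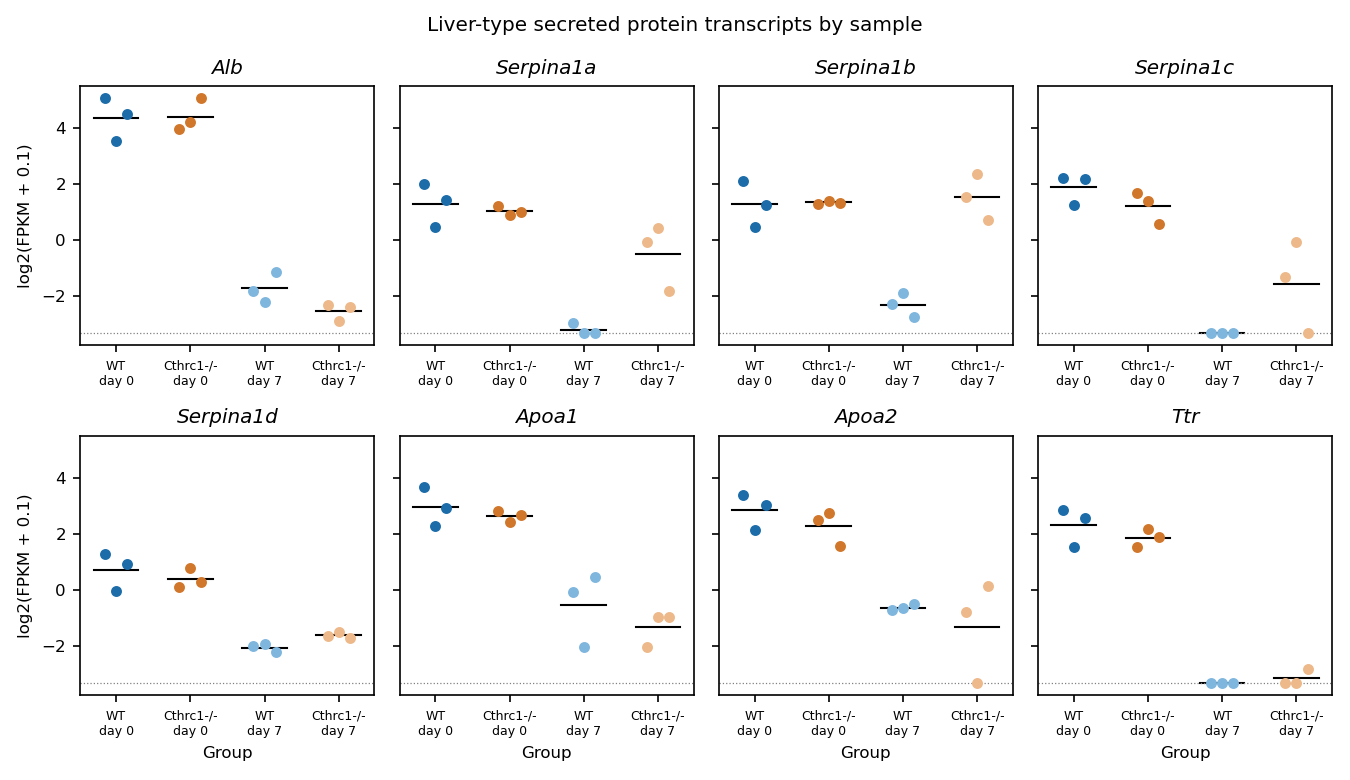
Each panel plots log2(FPKM + 0.1) of 1 gene on the vertical axis for the 12 samples in 4 groups; points are samples, black lines are group means and the dotted line is an FPKM of 0. Day 7 points lie below day 0 points in every panel for WT, and in Cthrc1-/- Serpina1b is the panel where they do not.

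Ttr (ENSMUSG00000061808, chromosome 18, 20665280 to 20674321, plus strand), which encodes transthyretin, was the gene closest to absence on day 7. Its FPKM was 7.24, 2.83 and 5.92 in WT and 2.81, 4.41 and 3.64 in Cthrc1-/- on day 0. On day 7 it had a count of 0 in 5 of 6 libraries and 4 counts (0.0433 FPKM) in Cthrc1-/- replicate 3. Mean CPM was at least 150-fold lower on day 7 in WT, taking 3 counts per library as the limit and 1 count as 1 fragment. The ratio was 220 in Cthrc1-/-, but it is no bound and cannot be set beside the WT value. Its day 7 mean of 0.0216 CPM lay under the limit of 3 counts, which was 0.0423 to 0.0487 CPM in those libraries. Ttr fell in both genotypes, by edgeR adjusted p-values of 0.00380 in WT and 0.0216 in Cthrc1-/- (log2 change -7.90, standard error 0.979). The call in Cthrc1-/- was lost without day 0 replicate 2, day 7 replicate 1 or day 7 replicate 2 (adjusted p 0.0546 to 0.0727).

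The apolipoprotein genes kept low but measurable levels on day 7. Apoa1 (ENSMUSG00000032083, chromosome 9, 46228580 to 46230466, plus strand), the structural protein of high-density lipoprotein, was at 12.6, 4.80 and 7.54 FPKM in WT and 6.96, 5.29 and 6.30 in Cthrc1-/- on day 0. Day 7 values were 0.864, 0.144 and 1.27 FPKM in WT and 0.142, 0.416 and 0.410 in Cthrc1-/-. Groups of different days did not overlap. Apoa1 fell by 3.62 (log2; standard error 0.713, edgeR adjusted p 0.0132) in WT and by 4.39 in Cthrc1-/- (standard error 0.745, adjusted p 0.0303 in edgeR). The latter call was lost without Cthrc1-/- day 0 replicate 2 or any 1 of the Cthrc1-/- day 7 replicates (adjusted p 0.0726 to 0.116). Apoa2 (ENSMUSG00000005681, chromosome 1, 171225054 to 171226379, plus strand), its partner on the same particle, was at 10.5, 4.28 and 8.04 FPKM in WT and 5.58, 6.69 and 2.90 in Cthrc1-/- on day 0. Its day 7 values were 0.507, 0.539 and 0.608 FPKM in WT, and 0.484, 0 and 0.996 in Cthrc1-/-. Its days did not overlap in either genotype. Apoa2 fell by 3.95 in WT (standard error 0.978, edgeR adjusted p 0.0288), a call that was lost when any 1 WT library was left out (adjusted p 0.0574 to 0.0795). Its log2 change of -3.54 in Cthrc1-/- (standard error 0.965) did not pass, with an adjusted p of 0.0930 in edgeR. DESeq2 called it at an adjusted p of 0.00192, so that 3 of 6 genes were called lower there in Cthrc1-/-, where DESeq2 called 4.65% of all genes lower. limma also called Apoa2, at adjusted p-values of 0.0143 with a pseudocount of 1 FPKM and 0.0249 with 0.1.

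The Serpina1 genes lie together on chromosome 12, minus strand. On day 7 every Cthrc1-/- value of Serpina1a, Serpina1b and Serpina1d lay above every WT value, 3 of the 8 genes, as was true of 5.05% of the 34303 genes with any count. Serpina1a (ENSMUSG00000066366, 103853589 to 103863562) was at 3.93, 1.30 and 2.62 FPKM in WT and 2.21, 1.78 and 1.89 in Cthrc1-/- on day 0. On day 7 it was at 0.0292, 0 and 0 FPKM in WT but at 0.860, 1.27 and 0.185 in Cthrc1-/-. The days did not overlap in either genotype. In WT Serpina1a fell by 8.02 (log2, standard error 1.15) at an adjusted p of 0.00544 in edgeR. The WT counts of day 7 were 4, 0 and 0, so the size of this fall is not measured beyond the limit of 3 counts per library. Its log2 change of -1.49 in Cthrc1-/- (standard error 0.792) did not pass (edgeR adjusted p 0.353).

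Serpina1b (ENSMUSG00000071178, 103728156 to 103830373) was the gene that departed from Alb. Its FPKM on day 0 was 4.28, 1.29 and 2.31 in WT and 2.37, 2.57 and 2.44 in Cthrc1-/-. On day 7 it was 0.106, 0.174 and 0.0485 in WT, but 2.81, 5.11 and 1.55 in Cthrc1-/-, on both sides of the day 0 values. Serpina1b fell by 4.70 in WT (standard error 0.647, edgeR adjusted p 0.00500), and in Cthrc1-/- its log2 change was 0.21 (standard error 0.543, edgeR adjusted p 0.879). The sign of the latter turned without Cthrc1-/- day 7 replicate 2 (-0.33, adjusted p 0.858). In mean CPM, Serpina1a, Serpina1c and Serpina1d fell 2.51-fold, 6.01-fold and 5.39-fold in Cthrc1-/-, against 278-fold for Alb. Apoa1 and Apoa2 fell 18.7-fold and 10.1-fold there. The annotated span of Serpina1b contains that of Serpina1d on the same strand, so reads of these genes may be shared.

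Serpina1c (ENSMUSG00000079015, 103894926 to 103904887) was at 4.58, 2.32 and 4.44 FPKM in WT and 3.13, 2.56 and 1.39 in Cthrc1-/- on day 0. On day 7 all 3 WT libraries had a count of 0, and the Cthrc1-/- libraries were at 0.301, 0.856 and 0 FPKM. Mean CPM was at least 122-fold lower on day 7 in WT (edgeR adjusted p 0.0125), taking the limit of 3 counts and 1 count as 1 fragment. It was 6.01-fold lower in Cthrc1-/-, where the log2 change of -2.76 (standard error 1.14) gave an adjusted p of 0.254 in edgeR. The antisense gene B430119L08Rik overlaps Serpina1c and held 0 to 27 counts per library. Serpina1d (ENSMUSG00000071177, 103763594 to 103773592) was at 2.37, 0.874 and 1.79 FPKM in WT and 0.983, 1.65 and 1.13 in Cthrc1-/- on day 0. It was at 0.148, 0.165 and 0.114 FPKM in WT and 0.221, 0.255 and 0.203 in Cthrc1-/- on day 7. In the fit without a filter Serpina1d fell by 3.64 in WT (standard error 0.471, edgeR adjusted p 0.00558) and by 2.59 in Cthrc1-/- (standard error 0.448, adjusted p 0.0375).

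**Figure D2:**
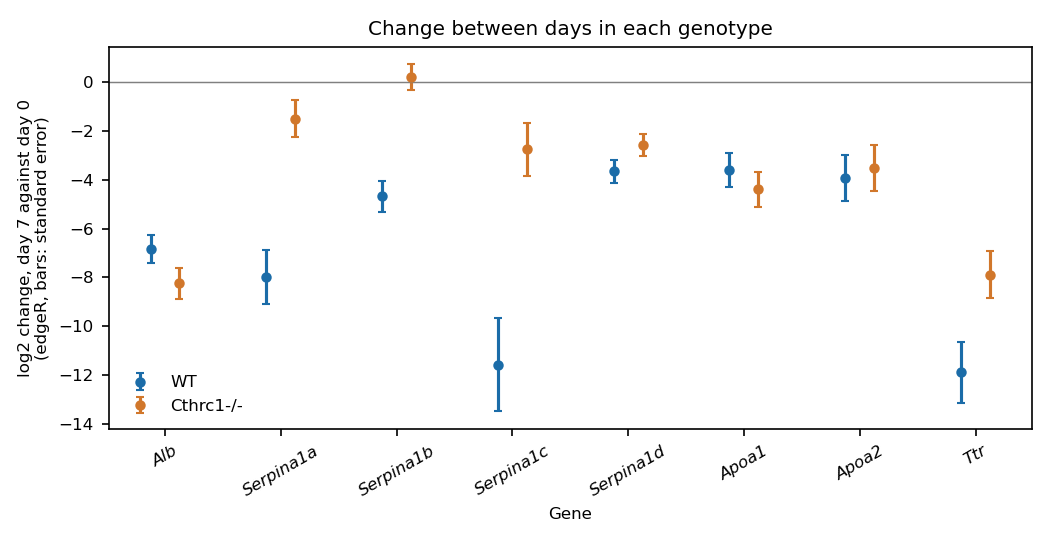
The vertical axis is the log2 change between day 0 and day 7 from edgeR without a filter, with its standard error as bars, for each of the 8 genes in WT (blue) and Cthrc1-/- (orange). Points below 0 are lower on day 7, and Serpina1b in Cthrc1-/- is the point above 0. Values of Serpina1c and Ttr in WT, where all day 7 counts are 0, depend on the prior count and set no size. The bars were worked back from the F of the test, and those of Alb stand for no test.

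Because reads of the copies may be exchanged, the counts of Serpina1a to Serpina1e were also summed to 1 gene. The sums were 1901, 1115 and 1661 in WT and 1600, 1118 and 975 in Cthrc1-/- on day 0. On day 7 they were 124, 200 and 135 in WT and 719, 1264 and 395 in Cthrc1-/-. Each Cthrc1-/- sum of day 7 lay above each WT sum of that day, with a log2 difference of 2.23 (standard error 0.435) that did not pass (edgeR adjusted p 0.402). In WT the summed gene fell by 3.78 (log2; standard error 0.463) at an adjusted p of 0.00367 in edgeR. Its log2 change of -1.07 in Cthrc1-/- (standard error 0.418) did not pass (edgeR adjusted p 0.211). The interaction of genotype and day, which is the difference of these changes, was 2.71 for the summed gene (standard error 0.596, edgeR adjusted p 0.173). Serpina1e, the fifth copy, was at 0.779, 1.21 and 0.999 FPKM in WT and 0, 0.0718 and 0.823 in Cthrc1-/- on day 7, so its groups overlapped and its lower values were in Cthrc1-/-.

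Between genotypes on day 0, none of the 8 genes was called by edgeR, where 5.78% of all genes were. In the filtered fit 0 of the 7 had an unadjusted p under 0.05, as had 28.4% of all genes, and DESeq2 called 0, where it called 19.6% of all genes. The log2 difference of Alb, Cthrc1-/- against WT, was -0.14 (standard error 0.457, edgeR adjusted p 0.862). The differences of the other 6 lay between -0.76 for Serpina1c and -0.20 for Serpina1b. Their standard errors of 0.543 to 1.06 are too wide to show differences of that size.

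Between genotypes on day 7, edgeR again called 0 of the 8, and 3 genes of 14313 in all (0.0210%). Of the 7 genes in the filtered fit, 4 had an unadjusted p under 0.05, as had 5.46% of all genes. DESeq2 called 3 (Serpina1a, Serpina1b and Serpina1c), where it called 0.436% of all genes. Serpina1b was 4.71 higher on the log2 scale in Cthrc1-/- (standard error 0.647, unadjusted p 2.4e-05 in edgeR's fit across all genes), with an adjusted p of 0.0688. The adjusted p was 8.41e-12 with DESeq2. The differences of Serpina1a and Serpina1c were 6.01 (standard error 1.10, edgeR adjusted p 0.298) and 8.10 (adjusted p 0.907), the latter against WT libraries all at 0. Alb differed in the opposite direction, by -1.54 (standard error 0.560, edgeR adjusted p 0.907).

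The interaction of genotype and day tests whether the change between days differed. edgeR called 0 of the 8, where 2 genes of 14313 (0.0140%) were called, and 3 of the 7 in the filtered fit had an unadjusted p under 0.05, as had 15.1% of all genes. DESeq2 called 3, again Serpina1a, Serpina1b and Serpina1c, where it called 4.79% of all genes. The interaction of Serpina1b was 4.91 (log2; standard error 0.824) at an adjusted p of 0.133 in edgeR, which became 0.0492 without Cthrc1-/- day 0 replicate 1. It was 6.53 for Serpina1a (adjusted p 0.149) and -1.40 for Alb (adjusted p 0.382), both in edgeR. For Serpina1d it was 1.05 in the fit without a filter (edgeR adjusted p 0.585), and for Serpina1e it was of the opposite sign, -1.30 (edgeR adjusted p 0.700).

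The share of Alb in the summed FPKM of the 8 genes shows how the mixture changed. On day 0 Alb made up 39.3% to 63.0% of the sum, which ranged from 29.2 to 79.5 FPKM. On day 7 it made up 9.98% to 15.1% of 1.14 to 2.40 FPKM in WT. In Cthrc1-/- on day 7 it made up 0.445% to 2.67% of 3.48 to 7.95 FPKM, and Serpina1b 44.6% to 64.3%.

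**Figure D3:**
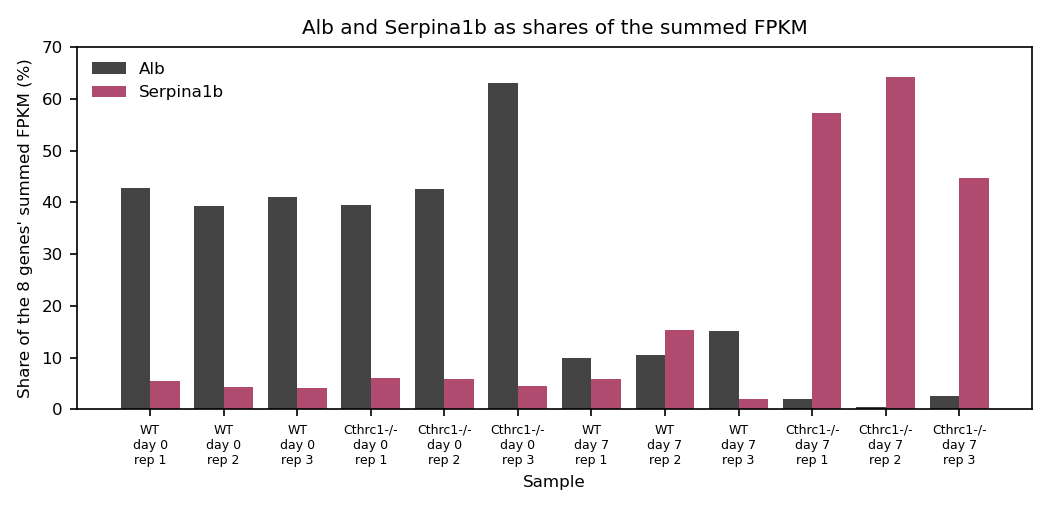
Bars give Alb (grey) and Serpina1b (red) as a percentage of the summed FPKM of the 8 genes in each of the 12 samples. Alb holds 39.3% to 63.0% on day 0, and Serpina1b holds 44.6% to 64.3% in Cthrc1-/- on day 7.

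Among the WT replicates of day 0, the 8 genes shared an order. All 8 had replicate 1 highest and replicate 2 lowest, an order shared by 14.6% of genes. Reads of the Serpina1 copies may be shared, so these are not separate cases. Serpina1e, outside the 8, was at 3.37, 1.93 and 7.32 FPKM in these replicates and so was highest in replicate 3. The ratio of Alb to each of the other 7 in FPKM varied by a factor of 1.02 (Serpina1a) to 1.50 (Serpina1c) between these replicates, while Alb itself ranged from 11.5 to 33.9 FPKM. In Cthrc1-/- on day 0 the ratios varied by a factor of 2.08 to 4.81, and each of the 7 was highest in replicate 3. Alb was thus high in replicate 3 without the others. In these Cthrc1-/- libraries, 3 of the 8 genes were highest in replicate 1, 4 in replicate 2 and 1 (Alb) in replicate 3.

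Among the genes with a mean of at least 1 FPKM, those whose log2 CPM followed Alb most closely over the 12 samples were Fabp1 (Pearson r 0.983), Ttr (0.974), Cd82 (0.974), Serpina3k (0.966) and Hspa2 (0.965). All share libraries and the gap between days. Fabp1 encodes the fatty acid binding protein of liver and gut, and Serpina3k a plasma serpin. Fabp1 was at 6.21, 1.58 and 2.94 FPKM in WT and 2.75, 1.94 and 3.36 in Cthrc1-/- on day 0, and at a count of 0 in all 6 libraries of day 7. Cd82, a tetraspanin, and Hspa2, a heat shock protein, were far from 0 on both days, with Cd82 at 31.4 to 36.9 FPKM on day 0 and 19.7 to 24.1 on day 7.

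A wider list of 57 other proteins secreted by liver held further genes that fell. In the filtered fit 20 were tested, of which 4 fell and 0 rose in WT, and 2 fell and 0 rose in Cthrc1-/-. Of all genes in that fit, 7.10% were called lower in WT and 0.601% in Cthrc1-/-. Without the filter 20 of 57 fell in WT and 10 in Cthrc1-/-, with 0 higher in either, where 1.88% and 0.175% of all genes were called lower. The median fitted log2 change without the filter was -2.46 in WT and -1.97 in Cthrc1-/- over the 57 genes. Over all 34303 genes it was 0.000 in both. By ratios of mean CPM, with genes at 0 set to their limit of 3 counts, the median was -2.27 over 57 genes in WT and -2.08 over 56 in Cthrc1-/-. Every day 7 value lay below every day 0 value for 33 of the 57 in WT and 27 in Cthrc1-/-, against 9.98% and 3.61% of the 34303 genes. The 4 called in WT were Serpina3k (log2 change -7.84, edgeR adjusted p 0.00695), Ahsg, which encodes fetuin-A (-7.80, 0.0118), Hpx, the heme carrier hemopexin (-3.17, 0.00605), and Hamp, the iron hormone hepcidin (-2.67, 0.0414). Serpina3k (-11.29, edgeR adjusted p 0.0216) and Hpx (-2.30, 0.0440) were called in Cthrc1-/- as well. Serpina3k had a count of 0 in all 3 Cthrc1-/- libraries of day 7. In WT on day 7, Serpina3k and Ahsg each had a count of 0 in 2 libraries, so these changes set no size. Serpina3k, Ahsg, Hpx and Hamp averaged under 1 FPKM on day 7 in both genotypes. They passed the filter through day 0, where they had to be high, so these calls are no separate support for a fall.

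Other genes of that list were abundant on both days and were not called. Apoe, an apolipoprotein that macrophages also make, was at 612 to 928 FPKM in WT on day 0 and at 480 to 706 on day 7 (edgeR adjusted p 0.257). Apoc1 was at 91.8 to 105 and 35.5 to 96.7 FPKM in WT (edgeR adjusted p 0.175). The list's summed FPKM, most of it Apoe, was 1027 to 1341 in WT on day 0, 1195 to 2242 in Cthrc1-/- on day 0, 689 to 1706 in WT on day 7 and 754 to 1105 in Cthrc1-/- on day 7.

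Markers of the hepatocyte itself that are not secreted were followed beside these genes. Of 24, 20 had counts in every WT library of day 0 and 17 in every Cthrc1-/- library of day 0. In the filtered fit 5 were tested, and Fabp1 fell in WT (log2 change -10.24, edgeR adjusted p 0.00592) and in Cthrc1-/- (-9.71, 0.0216). Fabp1 had a count of 0 in every library of day 7, so these changes set no size. It passed the filter through day 0 alone, where it had to be high, so its calls are no separate support for a fall. Without the filter 9 fell and 1, Cps1, rose in WT, and 4 fell and 0 rose in Cthrc1-/-. Of all genes in the fit without the filter, 1.88% were called lower in WT and 0.175% in Cthrc1-/-. The median change with genes at 0 set to their limit was -3.16 over 22 genes in WT and -2.15 over 20 in Cthrc1-/-. The summed FPKM was 57.8 to 65.7 in WT and 37.4 to 81.4 in Cthrc1-/- on day 0, and 34.6 to 52.3 and 29.8 to 66.3 on day 7, most of it from Ass1 and Cyp2e1, which averaged 21.4 and 13.8 FPKM. Hnf4a, a defining transcription factor, was at 0.0270 to 0.154 FPKM on day 0 and at a count of 0 in 5 of 6 libraries on day 7. Cyp7a1, the first enzyme of bile acid synthesis, had a count of 0 in all 6 libraries of day 0. Of 14 transcription factors used in liver, 0 of the 4 tested were called in either genotype. Without the filter 1 of the 14, Hnf4a, was called lower in WT (log2 change -7.83, edgeR adjusted p 0.0395) and 0 in Cthrc1-/-. The most abundant were the CCAAT factors Cebpb and Cebpa at means of 57.0 and 50.8 FPKM. The FOXA genes Foxa1, Foxa2 and Foxa3 held at most 11, 8 and 16 counts in any library.

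Some genes of other organs were also lower on day 7. Among 10 genes of mesothelium, stomach and pancreas, Pgc, which encodes the stomach protease precursor pepsinogen C, was at 36.3, 20.4 and 30.2 FPKM in WT and 2.39, 0 and 40.3 in Cthrc1-/- on day 0, and at most 0.0749 on day 7. Pgc fell in WT (log2 change -10.22, edgeR adjusted p 0.0205), as did Tff1, a peptide of stomach mucus (-4.88, edgeR adjusted p 0.0227), while their edgeR adjusted p-values in Cthrc1-/- were 0.0788 and 0.0909. Both passed the filter through day 0, where they had to be high. The sum of these 10 genes was 27.0 to 61.7 FPKM in WT and 1.89 to 80.5 in Cthrc1-/- on day 0, and 1.19 to 5.02 and 2.19 to 2.97 on day 7. Within Cthrc1-/- on day 0 the sum was highest in replicate 3, where Alb was highest, and lowest in replicate 2, where Alb was not lowest. Tff2 and Gif, also genes of stomach, were at 0.471 to 1.98 and 0.177 to 1.21 FPKM in WT on day 0. In Cthrc1-/- on day 0 they were at 0.209 to 4.28 and 0 to 0.799 FPKM. Both had a count of 0 in every library of day 7, and neither was called in the fit without a filter. Some genes of pancreas and mesothelium did not follow Alb. Cela1, a pancreatic elastase gene, was at 0.560 to 0.998 FPKM in WT on day 0 and at 0.537 to 3.70 on day 7 (log2 change 1.17, edgeR adjusted p 0.220). Cpa1, a pancreatic carboxypeptidase gene, was at a count of 0 in all 3 WT libraries of day 0 and at 0, 0.265 and 0.122 FPKM on day 7. Pnlip, the pancreatic lipase gene, was highest in WT day 7 replicate 1, at 0.773 FPKM, and Msln, a mesothelium gene, was at 0 to 0.0727 FPKM in Cthrc1-/- on day 0 and at 0.119 to 0.200 on day 7. In the fit without a filter, 6 of 9 of these genes had a negative change in WT and 4 of 9 in Cthrc1-/-. The median change with genes at 0 set to their limit was -2.52 over 9 genes in WT and -1.41 over 8 in Cthrc1-/-, while the median of fitted changes was -2.68 and 0.00. Of 8 mammary gland genes, Wap, a milk whey protein, was at 63.6, 9.33 and 0 FPKM in WT on day 0 and at 0 to 0.181 in the other 9 libraries. Wap and Alb were both highest in WT day 0 replicate 1, at 63.6 and 33.9 FPKM. In WT day 0 replicate 3 and Cthrc1-/- day 0 replicate 3 Wap was at 0, with Alb at 22.7 and 33.5 FPKM. Of the 8, 1 gene, Krt8, was called lower in WT, and it too passed the filter through day 0. The mammary sum was 1.36 to 80.3 FPKM in WT and 2.00 to 7.39 in Cthrc1-/- on day 0, and at most 2.29 on day 7. The part of these tissues in the fall of Alb was not tested.

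**Figure D4:**
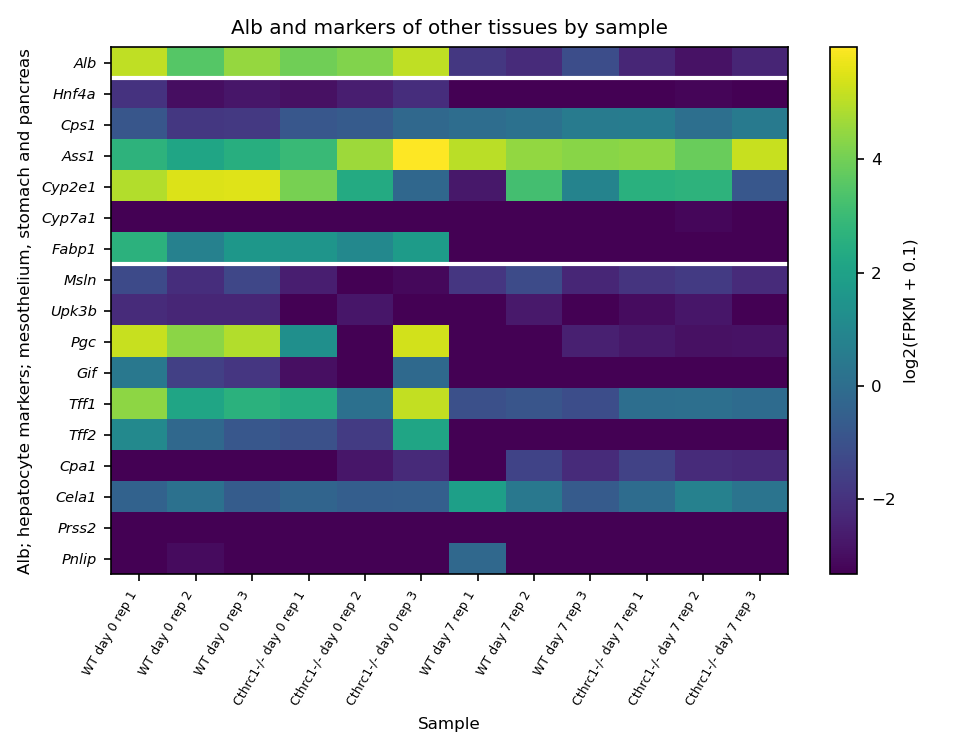
Colour gives log2(FPKM + 0.1) for Alb (top), the 6 hepatocyte markers named in the text (middle) and the 10 genes of mesothelium, stomach and pancreas (bottom) in the 12 samples. Fabp1 is seen in all 6 libraries of day 0 and in none of day 7, Ass1 is seen throughout, and Pgc is at 0 in Cthrc1-/- day 0 replicate 2.

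Cell types of skin and blood gave further values beside the fall. Of all 14313 genes in the filtered fit, edgeR called 864 higher and 1016 lower (7.10%) in WT, and 123 higher and 86 lower (0.601%) in Cthrc1-/-. Of 10 adipocyte genes, 9 were tested and 7 fell in WT by edgeR, among them Cfd (log2 change -3.40), Plin1 (-3.33), Cidec (-3.12) and Adipoq (-3.10), with a summed FPKM of 507 to 696 on day 0 and 86.6 to 184 on day 7, while 0 were called in Cthrc1-/- (117 to 348 on day 0, 92.5 to 240 on day 7). Of 7 red blood cell genes, 5 were tested and 0 called, with sums of 1273 to 1572 FPKM in WT and 153 to 1263 in Cthrc1-/- on day 0, and 426 to 947 and 125 to 265 on day 7. Of the 9 hair follicle genes 8 rose in WT, most of all the keratins Krt25 (10.59), Krt71 (10.27), Krt73 (10.10) and Krt27 (9.78), and 0 were called in Cthrc1-/-. Of 10 macrophage and neutrophil genes 3 rose in WT (S100a8, S100a9 and Cxcr2, all expressed by neutrophils) and 0 were called in Cthrc1-/-. Of 10 sebaceous genes Awat1 and Scd1 fell and Fads2 rose in WT. Of 10 keratinocyte genes Krt16 rose in WT, and 0 of 10 fibroblast genes and 0 of 9 muscle genes were called. Between days in Cthrc1-/-, edgeR called 0 genes of these 4 lists. Their part in the result was not tested.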

How the data were processed

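RNA was measured in 12 dermis samples. Strand-specific (dUTP) paired-end libraries of poly(A) RNA carried molecular identifiers, per the labels' protocols. Per the submitters' processing notes, the tools were cutadapt 1.9, HISAT2 2.0.4, UMI-tools, StringTie 1.3.4d, DESeq2 and edgeR with GRCm38, in no stated role. Per the file headers, the deposited table holds a whole-number count for each gene and sample, as the authors made it. It also holds an FPKM computed by the authors. Strand use in counting is not given in the sources used here. An FPKM of 0.0001 stood at every count of 0 and was read as 0. In the deposited counts, a count of 4 was 3.16 to 4.05 times as frequent as the mean of 3 and 5, so a low count need not be 1 fragment. The limit of 3 counts may be too low for that reason. No per-sample column was left unused (0).

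Groups and replicate numbers came from the sample titles. Counts of all 12 samples entered 1 fit of 4 group means in edgeR 4.0.16 (R 4.3.3; TMM, glmQLFit, glmQLFTest, two-sided) over 14313 genes with a mean of at least 1 FPKM. P-values were adjusted by Benjamini-Hochberg over all genes tested and called under 0.05. The same fit without the filter held 34303 genes. Symbols and positions came from GENCODE M21, which named 55141 of 55401 IDs. The procedure was tested on simulated data.

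The members, the marker lists and the tests were chosen with earlier results of these data known. Named were all 8 members, the 5 genes most correlated with Alb in log2 CPM (prior count 2), the called genes of each list with the 4 largest changes, the 2 genes of highest FPKM in lists of other tissues, and Cthrc1. Serpina1e, Hnf4a, Foxa1, Foxa2, Foxa3, Cyp7a1, Cps1, Tff2, Gif, Cela1, Cpa1, Pnlip and Msln were named after their values were seen. Lists were 57 liver-made secreted proteins, 24 hepatocyte markers, 14 liver-type transcription factors, and markers of fibroblasts, keratinocytes, hair follicle, sebaceous gland, adipocytes, muscle, red blood cells, mammary gland, macrophages and neutrophils, and mesothelium, stomach and pancreas. The gene Krt85 of the hair list matched no ID. Alternatives were DESeq2 1.42.0, RLE or total-count scaling, limma 3.58.1 on log2(FPKM + 1) and log2(FPKM + 0.1), other filters, only the groups compared, a replicate block, counts divided by 4, summed Serpina1 counts, and leaving out each sample.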

Additional observations from a re-analysis of the deposited data

How the results depend on the processing

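The 6 calls in WT between days became 5 to 7 in all but 1 of the alternatives, and 4 of 4 units where Serpina1a to Serpina1e were summed. The 2 calls in Cthrc1-/- between days became 3 with DESeq2 and with counts divided by 4 (Apoa2 added in both), 4 with limma on log2(FPKM + 1) and 4 with log2(FPKM + 0.1), and ranged from 0 to 2 when 1 library was left out. They were 0 without Cthrc1-/- day 0 replicate 2, day 7 replicate 1 or day 7 replicate 2, and 1 without day 7 replicate 3. Between genotypes on day 7 the 0 calls of edgeR became 3 with DESeq2 and 1 with limma on log2(FPKM + 0.1). For the interaction they became 3 with DESeq2, and 0 to 1 when 1 library was left out. The cause of these differences was not tested.

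Signs turned only for values that did not pass the threshold. Serpina1b between days in Cthrc1-/- was -1.07 with summed Serpina1 counts and -0.33 to 0.54 with 1 library left out. The day 0 difference between genotypes was 0.037 for Alb and 0.017 for Serpina1b with limma on log2(FPKM + 1), and 0.042 and 0.065 with log2(FPKM + 0.1). With 1 library left out it was -0.47 to 0.26 for Alb and -0.53 to 0.34 for Serpina1b. Apoa2 ranged from -1.23 to 0.32 between genotypes on day 7 and from -0.55 to 0.999 in the interaction with 1 library left out, and its interaction was -0.13 with limma on log2(FPKM + 0.1). Total-count scaling moved the median change of all genes between days by 0.197 in WT and 0.170 in Cthrc1-/-, and that between genotypes on day 0 by 0.105, and no member changed direction under it. It moved the calls of all genes from 864 higher and 1016 lower to 1669 and 543 in WT. DESeq2 called 1853 higher and 1698 lower there.

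The replicate block left 5 calls in WT (Apoa2 had an adjusted p of 0.0516 in edgeR) and 2 in Cthrc1-/-. Deviations of same-numbered samples correlated between -0.232 and 0.426, not above 0.1 in every pair, so the numbers only name samples. Genes at or near 0 on day 7 have no measurable size of change beyond the limit of 3 counts per library. Leaving out Ttr's only day 7 library with counts leaves nothing to compare between genotypes, so that alternative gave no value. Serpina1d, tested without the filter, was not refitted with libraries left out.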
